A study of Mus musculus with 25 samples.

Results

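The comparison described here is between CD4 T cells of miR-150 knock-in mice at day 7 of experimental autoimmune encephalomyelitis (EAE) and CD4 T cells of naive miR-150 knock-in mice. It rests on the 8 libraries that the labels give this genotype, 4 at day 7 and 4 naive, of 25 in the series, and it covers all 46078 genes of the count table. All mice were labelled C57BL/6NTac. EAE is a mouse model of multiple sclerosis in which immunization against myelin antigen primes autoreactive T cells. The other groups of the series were wild-type mice (4 naive and 5 day 7 libraries) and miR-150 knock-out mice (4 and 4), which are used below to ask whether the day 7 change depended on genotype. The labels state neither how the knock-in allele was built, nor its promoter or dose, nor which organ the cells came from, nor whether a library is 1 mouse or a pool. Library numbers within a group only name the libraries, in the order of the series.

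In this report naive cells are CD4 T cells of naive mice, whatever the state of the cells themselves. Resting CD4 T cells are activated when their antigen receptor and cytokine receptors are engaged. Early-response genes such as Fos and Jun are then transcribed, followed by helper programmes such as T follicular helper (Tfh, help to B cells) and Th17 (interleukin-17 family cytokines), and by division. Mature resting lymphocytes hold much of the microRNA miR-150, which is known to repress Myb.

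The 8 libraries held between 6454287 and 45739082 counts. The deepest and the shallowest were both naive, and the day 7 libraries held 11652606 to 25723483. Genes of ribosomal RNA took 22.9% to 24.2% of counts in naive and 25.2% to 28.7% in day 7 libraries, so this share rose with the stage without overlap (exact permutation test, two-sided, p = 0.02857, which is the smallest that 4 against 4 can give, and 0.1286 after adjustment over 9 values). CD4 T cell identity was high in all 8: the 10 CD4 T cell markers summed to 2407 to 2552 CPM (counts scaled to library size) in naive and 2505 to 2627 CPM at day 7. Separate mice are not stated for these libraries, and p-values therefore measure only the spread between them, which may be technical. In bulk RNA a change in the number of cells of a kind and a change in RNA per cell cannot be told apart.

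Mir150, at chr7:45121757-45121821 on mm10, was counted over its annotated precursor, which does not measure mature miR-150. It was at 12.9, 14.1, 13.9 and 16.2 CPM in naive and at 29.2, 15.01, 10.45 and 9.08 CPM in day 7 knock-in libraries (log2 fold change 0.18, SE 0.33, adjusted p = 0.887). The day 7 values lay on both sides of the naive range. Wild-type libraries had 20.2 ± 4.86 CPM naive (SD, n = 4) and 16.3 ± 5.57 CPM at day 7 (SD, n = 5), and all 8 knock-out libraries had 0 counts there.

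Of 14703 genes with enough counts to be tested, 312 (2.12%) passed an adjusted p of 0.05 in edgeR's quasi-likelihood test. At day 7, 150 genes were higher (1.02% of genes tested) and 162 were lower (1.10%). The counts of called genes in each list below are to be set beside these shares. The gains were the larger in size, with a median log2 fold change of 0.56 among the higher and -0.34 among the lower genes. The 2 stages did not overlap in any library for 1621 genes (11%), 691 higher (4.70%) and 930 lower (6.33%). Leaving out a single library left between 124 calls (without day 7 library 1) and 369 calls (without day 7 library 3). Without naive library 1, 3 or 4 there were 143, 152 and 188, without naive library 2 there were 105 higher and 100 lower, and without day 7 library 2 or 4 there were 226 and 261.

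The AP-1 transcription factors gave the clearest gain. AP-1 is a dimer of Fos-family and Jun-family proteins made within minutes of receptor or stress signals. Of 12 listed AP-1 genes 9 were tested, and 7 of these were higher at day 7 (77.8%, beside 1.02% of all genes tested). None was lower, and the median log2 fold change of the 9 was 1.34, beside 0.01 over all genes tested. Without day 7 library 1 the list had 6 calls and a median of 1.38. Fos was at 13.1, 4.47, 4.38 and 7.44 CPM in the naive libraries and at 46.9, 48.3, 109 and 49.1 CPM at day 7. All 4 day 7 values lay above all naive values, and day 7 library 3 stood above the other three. The log2 fold change of Fos was 3.06 with a standard error (SE) of 0.55 (adjusted p = 0.00418). Fosb rose with it, from 1.18 ± 0.968 CPM to 10.1 ± 6.60 CPM (SD, n = 4; log2 fold change 3.06, adjusted p = 0.0382), and that call was lost in 8 of 18 alternative analyses.

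Junb, the most significant gene of the comparison among those named here, went from 53.6, 47.3, 38.2 and 55.4 CPM to 115, 126, 126 and 124 CPM. The day 7 values were close together and all lay above the naive ones. Its log2 fold change was 1.34 (SE 0.11, adjusted p = 1.94e-09). Fosl2 rose 2.39-fold (adjusted p = 1.91e-06), Jun 2.79-fold (adjusted p = 0.0169) and Jund 1.75-fold (adjusted p = 0.000804). The call of Jun was lost in 4 of 18 alternative analyses. Maff, a small Maf protein, rose from 0.82 to 3.67 CPM on average (adjusted p = 0.00543). Batf, the AP-1 subunit needed for Tfh and Th17 cells, was at 20.9 and 23.6 CPM in day 7 libraries 1 and 4 but at 9.08 and 14.7 CPM in libraries 2 and 3, against 8.96 to 12.5 CPM in naive cells (adjusted p = 0.258).

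**Figure D1:**
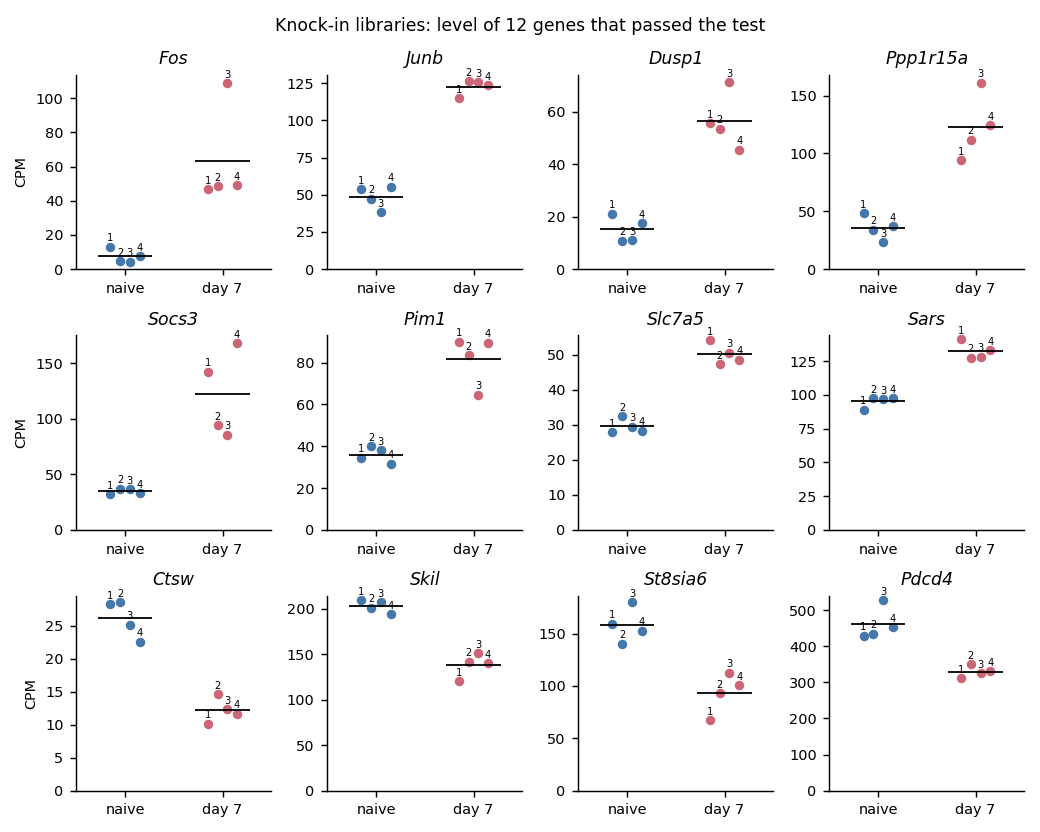
Level of 12 genes in CPM (linear axis from 0) in each knock-in library; numbers mark the library within its group and black lines the group mean. For all 12 genes the 4 naive and 4 day 7 libraries do not overlap: Fos, Junb, Dusp1, Ppp1r15a, Socs3, Pim1, Slc7a5 and Sars are higher at day 7 and Ctsw, Skil, St8sia6 and Pdcd4 are lower.

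Some genes that end such signals rose too. The share called higher in the lists below was 22.2%, 30.8% and 23.1% in turn, beside 1.02% of all genes tested. Dusp1, a phosphatase that switches off MAP kinases, was at 21.0, 10.8, 10.97 and 17.5 CPM in naive cells and at 55.5, 53.4, 71.1 and 45.4 CPM at day 7, again without overlap (log2 fold change 1.91, SE 0.25, adjusted p = 0.000223). Dusp10 rose 1.40-fold (adjusted p = 0.004), and the other 7 tested MAP kinase phosphatases and feedback inhibitors did not pass. Zfp36 (tristetraprolin, which marks cytokine mRNA for decay), Btg1 (an anti-proliferative factor), Klf2 and Klf6 rose 1.38-, 1.37-, 1.40- and 1.62-fold. They were 4 of 13 genes in their list with none lower, and 2 were called without naive library 1, 2 or 3. Klf6 lost its call in 7 of 18 alternative analyses, Klf2 in 4 and Zfp36 in 2. Nfkbiz, Tnfaip3 and Bcl3, which restrain or modulate NF-kappaB, rose 1.43-, 1.37- and 1.97-fold, 3 of 13 genes in their list, and no NF-kappaB subunit passed the test. Bcl3 lost its call in 9 of 18 alternative analyses and Tnfaip3 in 4, and the list had 1 call without naive library 1 or 2 or day 7 library 1.

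Of 11 tested receptor-induced transcription factors 1 was higher and 1 was lower (18.2% called, beside 2.12% of all genes tested). The list's median log2 fold change was -0.06, and Fos and Jun were counted in the AP-1 list instead. Ier2 was higher (1.34-fold, adjusted p = 0.0177). Egr3 was lower, at 19.6 to 24.7 CPM in naive cells and 14.5 to 17.5 CPM at day 7 (log2 fold change -0.47, adjusted p = 0.0191). Nr4a1, a reporter of receptor signalling, was at 21.8 to 35.4 CPM in naive and 23.5 to 28.9 CPM in day 7 libraries, and its log2 fold change was -0.06 (adjusted p = 0.941). Egr1, Myc, Irf4 and the activation marker Cd69 did not pass either. Of 27 genes of the receptor signalling machinery, 1 passed: Txk, a Tec-family kinase, rose 1.21-fold (adjusted p = 0.0125), and the list's median was -0.02.

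Among stress and growth arrest genes 3 of 11 tested were higher (27.3%, beside 1.02% of all genes tested) and none was lower. The median log2 fold change was 0.46. Ppp1r15a (GADD34), which restores translation after stress, went from 48.2, 33.9, 23.3 and 37.0 CPM to 93.9, 112, 161 and 124 CPM (log2 fold change 1.79, SE 0.21, adjusted p = 5.98e-05). Every day 7 library lay above every naive one, the closest values being 93.9 and 48.2 CPM. Atf4 itself rose from 53.9 to 70.3 CPM in naive cells to 87.3 to 96.1 CPM at day 7 (1.48-fold, adjusted p = 0.000804), and Trib3, an ATF4 target, rose 2.58-fold (adjusted p = 0.0158). ATF4 is known to activate genes of amino acid uptake, tRNA charging and one-carbon metabolism. Of 10 amino acid transporters 2 were higher and none was lower, with a median of 0.17, and 1 was called without naive library 1, 2 or 3 or day 7 library 1. Slc7a5, the light chain of the large neutral amino acid transporter, was at 27.9 to 32.5 CPM and then 47.3 to 54.2 CPM (1.70-fold, adjusted p = 0.000223), and its partner Slc3a2 rose 1.27-fold (adjusted p = 0.0302).

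Lists of cytosolic aminoacyl-tRNA synthetases and of serine, one-carbon, asparagine and proline synthesis were added after these values were seen, so their counts are a description. Of 20 synthetases 7 were higher (35.0%, beside 1.02% of all genes tested) and none was lower (median log2 fold change 0.18). The count was 3 without naive library 1 and 4 without naive library 3 or day 7 library 1. Sars, the seryl-tRNA synthetase, was at 88.9, 97.6, 96.8 and 97.3 CPM in naive cells and at 141, 128, 128 and 133 CPM at day 7 (1.40-fold, adjusted p = 0.000175). Aars and Cars rose 1.59- and 1.60-fold, Mars 1.43-fold, Yars 1.39-fold, Vars 1.32-fold and Gars 1.28-fold. The mitochondrial one-carbon enzymes Shmt2 and Mthfd2 each rose 1.52-fold (adjusted p = 0.000865 and 0.00138), and Aldh18a1 of proline synthesis rose 1.33-fold (adjusted p = 0.0226).

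The promoters of some of these genes are shown because they carry the short motif TGATGNAA, the core of the composite site that ATF4 binds with C/EBP proteins, or the cyclic AMP response element TGACGTCA. The windows are from RefSeq on GRCm38.p6 and run 5′ to 3′ on the gene's strand, from 250 bases before to 50 after the start site, with matches on either strand in capitals. They are chr8:111033592-111033891 (plus strand) for Aars, chr6:55037751-55038050 (plus) for Gars, chr4:129189653-129189952 (plus) for Yars, chr2:152344011-152344310 (minus) for Trib3, chr17:26508423-26508722 (minus) for Dusp1 and chr7:45526219-45526518 (minus) for Ppp1r15a.
Aars: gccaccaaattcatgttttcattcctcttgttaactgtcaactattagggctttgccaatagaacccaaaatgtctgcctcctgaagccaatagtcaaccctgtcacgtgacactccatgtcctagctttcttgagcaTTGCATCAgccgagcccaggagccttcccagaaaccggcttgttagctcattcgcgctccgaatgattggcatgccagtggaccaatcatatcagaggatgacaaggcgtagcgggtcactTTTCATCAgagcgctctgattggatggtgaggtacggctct
Gars: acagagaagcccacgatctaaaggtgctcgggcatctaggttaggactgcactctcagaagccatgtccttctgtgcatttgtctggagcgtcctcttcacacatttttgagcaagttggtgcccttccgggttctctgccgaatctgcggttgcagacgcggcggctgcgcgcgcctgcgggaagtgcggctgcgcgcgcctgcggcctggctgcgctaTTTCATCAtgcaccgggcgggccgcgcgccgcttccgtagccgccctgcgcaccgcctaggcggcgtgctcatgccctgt
Yars: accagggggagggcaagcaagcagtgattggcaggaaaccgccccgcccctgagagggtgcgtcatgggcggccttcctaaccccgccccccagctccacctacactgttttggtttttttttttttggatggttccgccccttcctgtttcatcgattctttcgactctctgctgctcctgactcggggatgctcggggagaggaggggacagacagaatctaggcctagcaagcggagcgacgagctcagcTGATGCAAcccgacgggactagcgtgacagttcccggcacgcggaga
Trib3: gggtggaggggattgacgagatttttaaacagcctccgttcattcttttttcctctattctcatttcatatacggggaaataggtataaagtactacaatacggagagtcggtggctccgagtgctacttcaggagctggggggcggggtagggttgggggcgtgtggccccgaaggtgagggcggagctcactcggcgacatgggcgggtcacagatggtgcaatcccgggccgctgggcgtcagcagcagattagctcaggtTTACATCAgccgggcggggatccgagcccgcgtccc
Dusp1: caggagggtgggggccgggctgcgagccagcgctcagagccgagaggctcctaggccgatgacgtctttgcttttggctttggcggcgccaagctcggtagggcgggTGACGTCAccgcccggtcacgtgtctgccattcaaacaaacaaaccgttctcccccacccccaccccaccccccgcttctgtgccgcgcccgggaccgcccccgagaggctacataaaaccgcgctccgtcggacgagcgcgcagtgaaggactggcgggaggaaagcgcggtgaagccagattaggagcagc
Ppp1r15a: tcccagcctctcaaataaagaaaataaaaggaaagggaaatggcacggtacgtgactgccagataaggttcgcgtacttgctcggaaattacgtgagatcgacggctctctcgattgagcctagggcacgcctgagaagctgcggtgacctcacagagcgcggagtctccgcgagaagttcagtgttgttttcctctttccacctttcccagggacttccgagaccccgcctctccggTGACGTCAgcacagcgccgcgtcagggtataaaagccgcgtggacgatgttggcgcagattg
Counted from the start site, the ATF4 motif begins at -112 and 10 in Aars, at -30 in Gars, at 4 in Yars and at 15 in Trib3, and the cyclic AMP element begins at -143 in Dusp1 and at -12 in Ppp1r15a.

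Windows were held for 12 of the 20 synthetases, and TGATGNAA was found in 5 of them (41.7%). These were the windows of Aars, Gars and Yars, which rose, and of Iars and Tars, which did not pass. With the correction for length and GC content given below, edgeR no longer called Aars and Yars (adjusted p = 0.0536 and 0.0702). Gars kept its call. It was not found in those of Sars, Dars, Eprs, Farsa, Farsb, Kars and Qars, nor in those of Atf4, Shmt2 and Mthfd2. The same letters were in 7 of 142 windows of the genes called higher (4.93%), in 0 of 155 of the genes called lower, in 2.22% of the windows of tested genes and in 3.97% of all windows. The cyclic AMP element was in 3 of the 142 windows of higher genes (2.11%, Dusp1, Ppp1r15a and 1 of 3 windows of Maff), in 0.645% of those of lower genes and in 3.12% of those of tested genes. Searches for TGANTCA (AP-1) gave 6.34%, 7.74% and 4.72% in the same order, and for the serum response CArG box 1.41%, 0.645% and 1.27%. No window of Fos, Fosb, Fosl2, Jun, Junb, Jund, Socs3 or Pim1 held an exact match to any of the 4 motifs. Sites outside the windows, or with other letters, were not searched for, so absence of such sites from these promoters was not tested. The motifs and the promoters shown were chosen after the fold changes and the matches had been seen, and a match is a description of the letters, not of binding.

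Of 12 genes of the interleukin-6 receptor pathway 2 were higher and 1 was lower, with a median log2 fold change of 0.04, and of 11 genes of the common gamma chain receptors 1 was higher, with a median of 0.16. Socs3, the feedback inhibitor induced by interleukin-6 through STAT3, was at 32.1, 37.2, 36.5 and 32.8 CPM in naive cells and at 143, 94.1, 85.8 and 168 CPM at day 7. The naive values were tight and the day 7 values spread, with libraries 1 and 4 the highest (log2 fold change 1.82, SE 0.29, adjusted p = 0.00138). Pim1, a kinase gene induced by STAT3 and STAT5, rose from 31.6 to 39.9 CPM in naive cells to 64.7 to 90.1 CPM (2.26-fold, adjusted p = 2.02e-05). Jak3, which serves the receptors that share the common gamma chain, rose 1.60-fold (adjusted p = 0.00333). Jak1 moved the other way, from 928 to 960 CPM in naive cells to 786 to 840 CPM at day 7 (0.87-fold, adjusted p = 0.0166). The receptor chains Il6ra and Il6st and the factor Stat3 had log2 fold changes of -0.01, -0.17 and 0.11 and did not pass. Cebpb, a transcription factor gene induced by cytokines, rose 2.60-fold (adjusted p = 0.00261) from a low level of 1.68 to 2.88 CPM.

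Of 15 tested Tfh genes 3 were higher and 1 was lower (26.7% called), and of 11 tested Th17 genes 2 were higher (18.2%). Of all genes tested 2.12% were called. Day 7 values of the Tfh and Th17 genes differed between libraries. Cxcr5, the chemokine receptor that takes Tfh cells to B cell follicles, was at 4.39, 3.91, 2.22 and 3.34 CPM in naive cells and at 37.5, 5.23, 6.74 and 20.6 CPM at day 7. Libraries 1 and 4 carried most of the gain, and libraries 2 and 3 lay just above the naive range (log2 fold change 2.34, SE 0.56, adjusted p = 0.0304, lost in 8 of 18 alternative analyses). Tox2, a transcription factor of Tfh cells, followed the same order, from 0.755 to 1.37 CPM in naive cells to 30.04, 3.23, 4.18 and 11.7 CPM (log2 fold change 3.72, SE 0.76, adjusted p = 0.012). Slamf6, a receptor of T cell and B cell contact, rose 1.496-fold (adjusted p = 0.0191). The median of the Tfh list was 0.58, and its lower gene was Tox (0.79-fold, adjusted p = 0.0218), whose libraries overlapped. The call of Tox was lost in 6 of 18 alternative analyses, that of Slamf6 in 5 and that of Tox2 in 4.

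The cytokine Il21 had 8.83, 0.385, 0.591 and 3.46 CPM at day 7 against 0 to 0.311 CPM in naive cells, the same order again, without passing the test (adjusted p = 0.12). Maf was at 58.2, 13.2, 13.6 and 33.5 CPM at day 7 against 6.53 to 13.3 CPM (adjusted p = 0.0804), and Bcl6, the master regulator of Tfh cells, was at 23.6 to 30.1 CPM against 19.1 to 23.6 CPM (adjusted p = 0.311). Without day 7 library 1 no Tfh gene passed, and the median of the list was 0.38. None was higher without naive library 1 either, 1 was without naive library 3 or 4 or day 7 library 4, and 5 were without day 7 library 2.

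Il1r1, the interleukin-1 receptor that Th17 cells use, had the largest log2 fold change among higher genes of at least 5 CPM whose libraries did not overlap, 4.48 (SE 0.79, adjusted p = 0.00362). Its naive values were 0.551, 0.319, 0.155 and 0.759 CPM and its day 7 values 20.4, 3.39, 2.25 and 9.51 CPM. Once more libraries 1 and 4 were the highest. Il22, a Th17 cytokine, had no counts in 108524057 counts of naive libraries and 84 in 73178544 counts at day 7, which makes it at least 41.5-fold higher against a limit of 3 counts over the naive group. Without day 7 library 1, which held 63 of the counts, the bound was 14.8-fold. These 84 counts came from 3 of the 4 libraries, at 2.98, 0, 0.315 and 1.12 CPM (adjusted p = 0.0424, lost in 6 of 15 alternative analyses). All 11 tested Th17 genes had a positive log2 fold change (median 1.35), beside 7587 of 14703 genes tested, but 2 passed. Il22, one of the 2, had 0 counts in every naive library of the series. It passed the filter on low counts only through day 7 libraries, so its sign was fixed in advance. Ccr6, a chemokine receptor of Th17 cells, was at 16.1, 3.0, 5.28 and 12.02 CPM at day 7 against 2.58 to 4.09 CPM in naive cells (adjusted p = 0.0883). Il17a had 0 counts in all 8 libraries and was not tested. Without day 7 library 1 the median of the list was 0.56. It had 1 call without any single naive library, without day 7 library 1 and without day 7 library 4.

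None of 36 genes of S phase and mitosis passed, and 1 did without day 7 library 3. Mki67, a marker of cycling cells, was at 27.2, 29.7, 67.2 and 14.3 CPM in naive cells and at 205.6, 39.7, 45.05 and 123 CPM at day 7, so that libraries 2 and 3 lay inside the naive range (log2 fold change 1.52, SE 0.66, adjusted p = 0.281). Of the 36 genes 35 were positive, beside 7587 of all 14703 genes tested, and the median of the 36 was 1.05. At an unadjusted p under 0.05 the whole comparison held 2147 genes. E2f2, an activator of S phase genes, did pass (1.65-fold, adjusted p = 0.0215), as did the inhibitor Cdkn1b (1.21-fold, adjusted p = 0.0377), though neither did without naive library 1 or 4. A list of replication-dependent histones was added after these values were seen. All 54 tested were positive with a median of 0.96, and 4 passed (7.41%, beside 1.02% of all genes tested). They were the linker histones Hist1h1c (1.58-fold) and Hist1h1e (1.66-fold), and Hist1h3f (1.75-fold) and Hist2h4 (2.0-fold). Without day 7 library 1 the medians were 0.58 for S phase and mitosis and 0.65 for histones. Histone calls numbered 8 without day 7 library 3 and 2 without day 7 library 1 or 4 or naive library 1, 3 or 4.

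**Figure D2:**
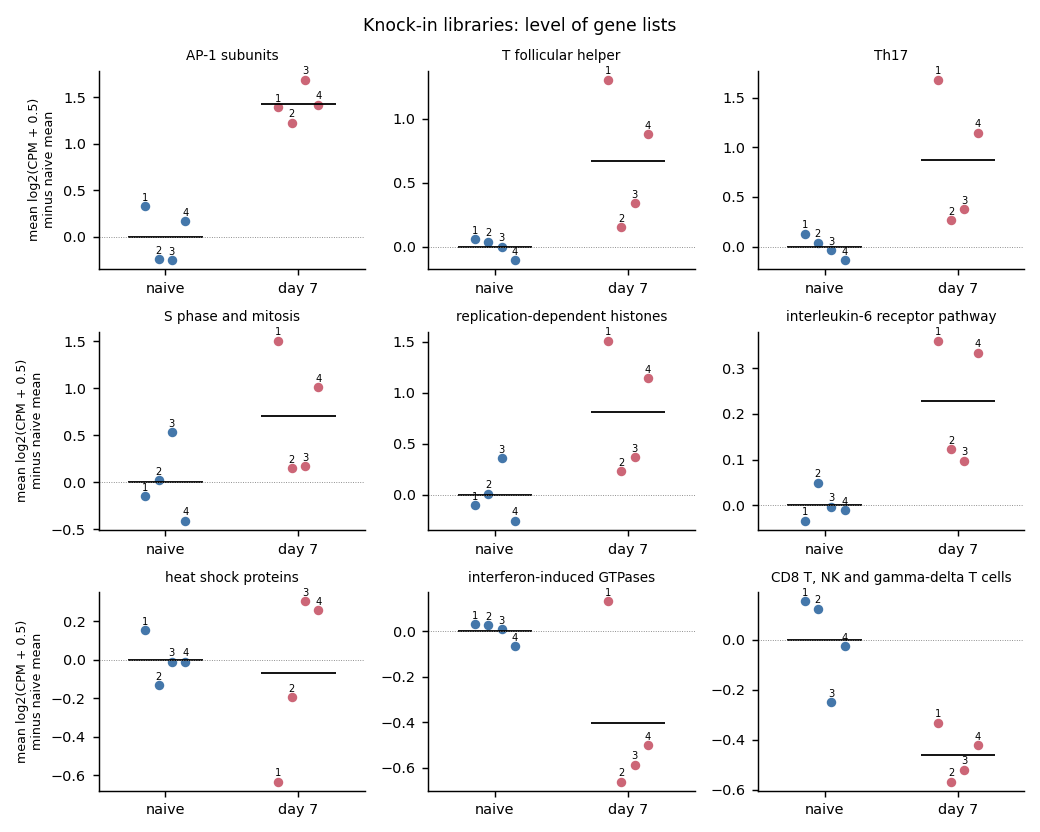
Mean log2(CPM + 0.5) of the tested genes of 9 lists in each knock-in library, minus the naive mean of that list; numbers mark the library and black lines the group mean. AP-1 subunits are high in all 4 day 7 libraries, whereas Tfh, Th17, S phase, histone and interleukin-6 pathway levels are highest in day 7 libraries 1 and 4, and heat shock proteins are lowest in day 7 library 1.

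Heat shock proteins differed widely among day 7 libraries. Hspa1b, an inducible HSP70, was at 207.5, 115, 140 and 216.5 CPM in naive cells and at 8.55, 97.2, 342 and 226 CPM at day 7, a log2 fold change of -0.0038 (SE 0.84). Of 14 tested heat shock genes only Hspa5 passed, an endoplasmic reticulum chaperone that rose 1.29-fold (adjusted p = 0.0213). Libraries of Hspa5 overlapped, and its call was lost in 6 of 18 alternative analyses. The list's median was 0.03. In wild-type cells 8 of the same 14 were higher and the median was 0.65. The test of the difference between the 2 genotypes called none of them.

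Of 19 genes of the resting T cell state 5 were higher and 1 was lower (31.6% called, beside 2.12% of all genes tested). In the list 9 genes had a positive and 10 a negative log2 fold change, with a median of -0.02. The higher count was 2 without naive library 1 and 3 without naive library 3 or day 7 library 2. It was also 3 with the correction for length and GC content given below. Igfbp4 was at 431, 568, 410 and 446 CPM in naive cells and at 761, 728, 597 and 752 CPM at day 7 (1.53-fold, adjusted p = 0.00321). Bcl2, which protects resting lymphocytes from death, rose 1.26-fold (adjusted p = 0.00205) with day 7 values of 232 to 246 CPM above naive values of 182 to 200.5 CPM. Tcf7, the transcription factor TCF1, rose from a mean of 1111 to 1322 CPM (log2 fold change 0.25, adjusted p = 0.0216). Klf2 and Txk, given above, were the other higher genes of this list, and the lower one was Dapl1 (0.635-fold, adjusted p = 0.00988), whose libraries overlapped. The lymph node homing gene Ccr7 had a log2 fold change of 0.13 and did not pass.

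Sgk1, a kinase gene known to be induced by salt and glucocorticoid and to favour Th17 cells, rose from 23.4 to 28.2 CPM in naive cells to 37.3 to 41.9 CPM (1.53-fold, adjusted p = 0.000223). Tnfrsf25, a costimulatory TNF receptor, rose 1.45-fold (adjusted p = 0.00244). In effector and memory genes the single call was for a fall, of the integrin Itga4 (0.83-fold, adjusted p = 0.0183), the chain that lets T cells enter the central nervous system. Its partner Itgb1 did not pass, at a log2 fold change of 0.39, and a laminin receptor chain, Itga6, fell 0.83-fold (adjusted p = 0.0448, lost in 11 of 18 alternative analyses). Neither fall was called without naive library 3 or day 7 library 1.

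No gene passed in the lists of Th1 (12 tested), Th2 (8), regulatory T cell (17), glycolysis (17), ribosome biogenesis (12), mitochondrially encoded (10), Id and E protein (5) and MHC class I genes (14). Foxp3, which defines regulatory T cells, was at 58.6 to 66.2 CPM in naive and 56.2 to 69.6 CPM in day 7 libraries (log2 fold change -0.02, SE 0.13). All 15 interferon-induced GTPases were negative with a median of -0.36, and none passed. Gbp4 illustrates the pattern: it was at 290 to 331 CPM in naive cells and at 364, 202.1, 243 and 222.4 CPM at day 7, and day 7 library 1 was the exception (adjusted p = 0.543). Of 27 type I interferon-stimulated genes 1 passed, Ifi203 (0.77-fold, adjusted p = 0.0367).

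**Figure D3:**
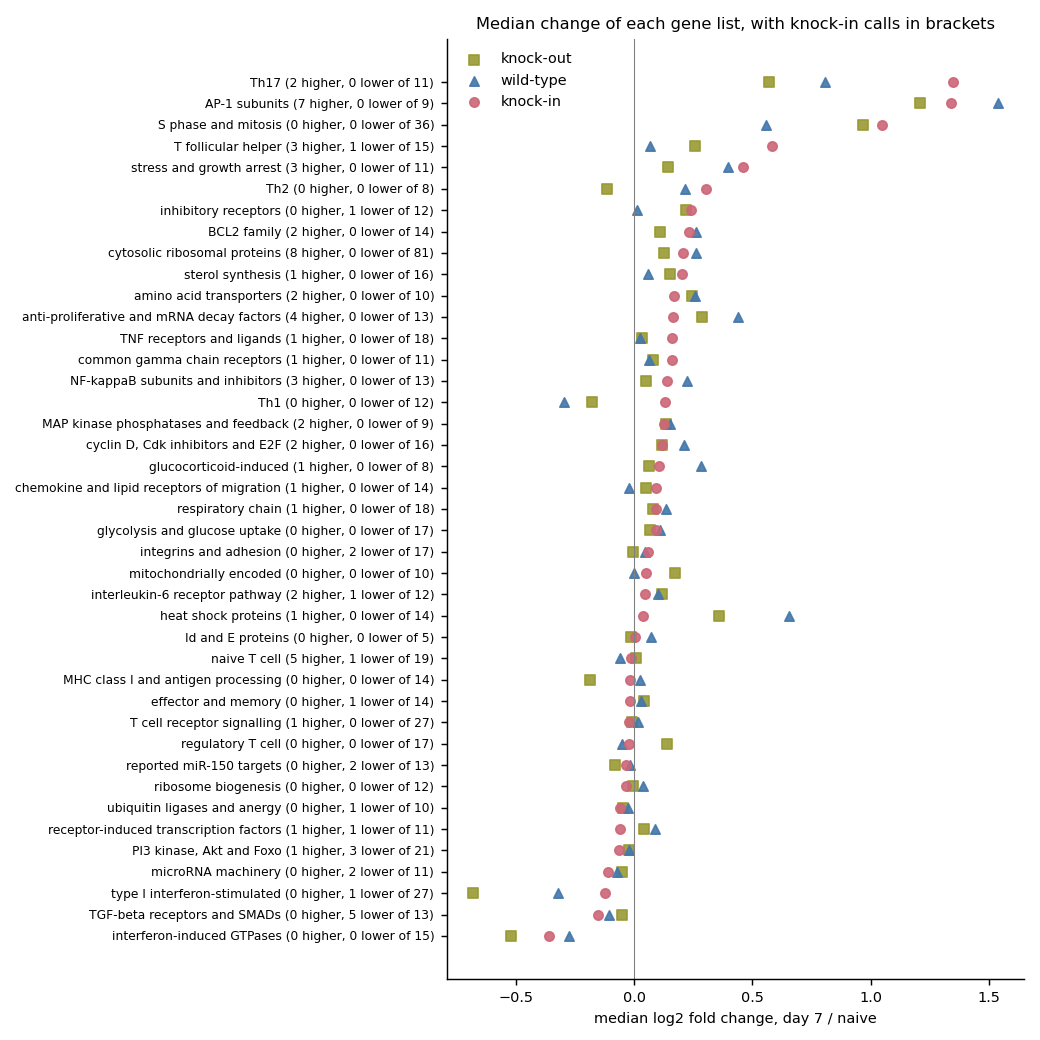
Median log2 fold change, day 7 over naive, of the tested genes of each of 41 lists in knock-in (circles), wild-type (triangles) and knock-out cells (squares), with the number of knock-in calls in brackets. Th17, AP-1, S phase and Tfh lists have the highest knock-in medians, at 1.35, 1.34, 1.05 and 0.58, and interferon-induced GTPases the lowest, at -0.36.

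The lower genes changed by less at the median. Ctsw, a cathepsin of cytotoxic lymphocytes, went from 28.3, 28.6, 25.2 and 22.6 CPM to 10.2, 14.6, 12.4 and 11.7 CPM (log2 fold change -1.11, SE 0.13, adjusted p = 1.91e-06). Skil (SnoN), a repressor of TGF-beta responses, fell from 209.5, 201.3, 207.4 and 194 CPM to 121, 142, 151 and 140 CPM (log2 fold change -0.55, SE 0.07, adjusted p = 1.5e-05). Neither gene's groups overlapped. Apol9b had the largest fall among lower genes of at least 5 CPM whose libraries did not overlap, from 6.09 to 9.1 CPM in naive cells to 1.31 to 2.33 CPM (0.24-fold, adjusted p = 0.00663). The ubiquitin ligase gene Nedd4 fell 0.48-fold (adjusted p = 0.00461), the costimulatory ligand Cd86 0.51-fold (adjusted p = 0.0304), the lysosomal sulfatase gene Arsb 0.55-fold (adjusted p = 0.000374) and Gpd2, the mitochondrial glycerol-3-phosphate dehydrogenase, 0.57-fold (adjusted p = 0.00189). The call of Cd86 was lost in 6 of 18 alternative analyses. Wscd2, Sytl2, Apol7e and Tdrp fell 0.62-, 0.62-, 0.63- and 0.64-fold.

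Of 13 genes of TGF-beta signalling 5 were lower (38.5%, beside 1.10% of all genes tested) and none was higher. Besides Skil these were Smurf1, a ubiquitin ligase for SMADs (0.78-fold, adjusted p = 0.0191), the receptors Tgfbr2 (0.86-fold, adjusted p = 0.0272) and Tgfbr1 (log2 fold change -0.34, adjusted p = 0.0375), and Ski (0.85-fold, adjusted p = 0.0361). They include both receptors and inhibitors of the pathway. Skil kept its call in all 18 alternative analyses, whereas Ski lost it in 9 and Tgfbr2 in 7. The list had 3 calls without naive library 1, 2 without naive library 2 or day 7 library 3, and 1 without naive library 3 or 4 or day 7 library 1. In the PI3 kinase pathway the regulatory subunit Pik3r1 went from 250 to 284 CPM in naive cells to 207.9 to 218.8 CPM (0.82-fold, adjusted p = 0.00302), and Pik3cg fell 0.77-fold (adjusted p = 0.0191). The catalytic subunit Pik3cd, the main one of lymphocytes, rose instead, 1.22-fold (adjusted p = 0.012). Pik3cd and Pik3cg each lost the call in 3 of 18 alternative analyses. Of 21 genes in the list of this pathway 1 was higher and 3 were lower (19.0% called, beside 2.12% of all genes tested). The median log2 fold change was -0.07. The lower count was 1 without naive library 1 or day 7 library 1.

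All 3 tested alpha-2,8-sialyltransferases were lower, in a list added after the values were seen. These enzymes add sialic acid to sialylated glycans. St8sia6 went from 159, 140, 180 and 153 CPM to 67.4, 93.2, 113 and 100.5 CPM (log2 fold change -0.76, SE 0.11, adjusted p = 0.000223), St8sia1 fell 0.74-fold (adjusted p = 0.000141) and St8sia4 0.80-fold (adjusted p = 0.0121). The lowest value of St8sia6 was in day 7 library 1.

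Myb, a known target of miR-150, was at 28.9, 25.9, 39.1 and 23.5 CPM and then 57.3, 32.1, 40.2 and 53.3 CPM (1.53-fold, adjusted p = 0.149), and its groups overlapped. Among 13 tested genes reported as miR-150 targets 2 were lower (15.4%, beside 1.10% of all genes tested), Pdcd4 among them. None was higher, and the median was -0.03. Without naive library 1 or day 7 library 1 the count was 1. Pdcd4, an inhibitor of translation, fell from 428, 435, 527 and 452 CPM to 312, 350, 326 and 330 CPM (log2 fold change -0.48, SE 0.07, adjusted p = 5.98e-05). In the microRNA machinery Ago2 and Tnrc6b, both part of the silencing complex, fell 0.85-fold each (adjusted p = 0.0391 and 0.0104), and the other 9 tested genes did not pass. Neither was called without naive library 1 or day 7 library 1, and 1 of them was called without any other single library.

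Some markers of other lymphocytes were lower at day 7. The markers of CD8 T cells, NK cells and gamma-delta T cells summed to 75.8 to 91.0 CPM in naive and 60.1 to 64.9 CPM in day 7 libraries, without overlap (exact permutation test, two-sided, p = 0.02857, adjusted 0.1286). Of the list's 16 tested genes 3 were lower (18.8%, beside 1.10% of all genes tested), none was higher, and the median was -1.02. Ctsw was given above. Trdc, the constant region of the delta receptor chain, fell 0.57-fold (adjusted p = 0.00409), and the NK receptor Klrd1 0.43-fold (adjusted p = 0.0235). Cd8b1 was at 8.82 to 11.4 CPM in naive and 9.25 to 11.1 CPM in day 7 libraries, and the list's most abundant other gene, Prf1, had a log2 fold change of 0.44 (adjusted p = 0.273). The part of these cells in the falls of other genes was not tested.

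B cell and plasma cell markers summed to 166 to 231 CPM in naive cells and to 249.7, 184.6, 214.6 and 476.8 CPM at day 7. The high sum was that of library 4, where Igkc, an immunoglobulin light chain, was at 198 CPM against 0.444 to 12.9 CPM in the other 7 libraries, and Jchain was at 20.7 CPM. Cd79a, a subunit of the B cell receptor, averaged 1.56 CPM before and 1.13 CPM after induction. Myeloid markers summed to 14.6 to 18.8 CPM and to 18.1 to 21.1 CPM.

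Mog, which encodes myelin oligodendrocyte glycoprotein, was picked out after its values were seen. It had 1 count over the 4 naive libraries and 10, 38, 15 and 7 counts in day 7 libraries 1 to 4, or 0.472, 2.93, 0.591 and 0.605 CPM (adjusted p = 0.025, lost in 4 of 15 alternative analyses). Wild-type libraries had 0 counts naive and 40 in all 5 at day 7, and knock-out libraries 0 naive and 60 in 3 of 4 at day 7. Mog passed the filter on low counts only through day 7 libraries of the series, so the direction of its change was fixed in advance. Of 13 oligodendrocyte genes listed after the Mog counts were seen 4 were tested, and Mog was the only one called. Mbp, which lymphocytes also transcribe, had a log2 fold change of -0.12 and did not pass.

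Of 81 tested genes of cytosolic ribosomal proteins 8 were higher (9.88%, beside 1.02% of all genes tested) and 73 did not pass. The median log2 fold change of the 81 was 0.21 and 79 were positive, beside 7587 of all 14703 genes tested. Leaving out naive library 1 left 3 calls, and leaving out day 7 library 1 or naive library 3 or 4 left 2 each. Rps6 was at 487 to 546 CPM in naive cells and 618 to 650 CPM at day 7 (1.23-fold, adjusted p = 0.00302), and Rpl17, Rpl36 and Rps18 rose 1.22-, 1.25- and 1.22-fold. These are short transcripts, and the change at day 7 varied with transcript length and base composition across all genes. Among protein-coding genes the longest annotated transcript had a median length of 2.93 kb in higher genes, 5.65 kb in lower genes and 3.41 kb in all tested genes. Their median GC content was 53.1%, 44.8% and 49.6%. Called genes were also more abundant: the median level was 44.6 CPM in all higher, 120 CPM in all lower and 12.3 CPM in all tested genes. With genes ranked by transcript length into 5 equal parts, the part with the shortest had a median log2 fold change of 0.09 and 35 higher against 6 lower calls. In the part with the longest it was -0.07 with 17 higher against 79 lower calls. The ribosomal RNA share given above moved with the same stage, and without ribosomal RNA, mitochondrial and haemoglobin genes 294 genes were called. By GC content the medians ran from -0.08 in the lowest to 0.10 in the highest of 5 such parts.

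**Figure D4:**
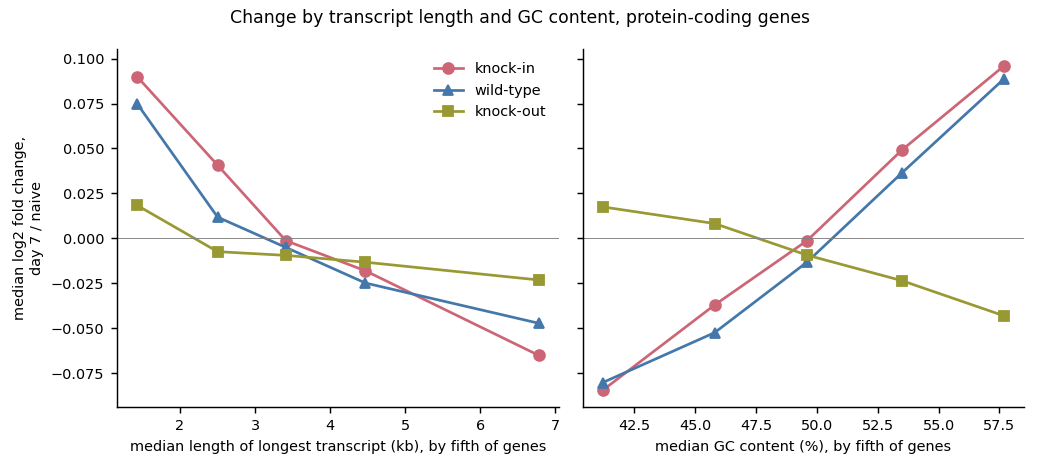
Median log2 fold change, day 7 over naive, of protein-coding genes in 5 equal parts by length of the longest transcript (left, kb) and by its GC content (right, percent), in each genotype. Knock-in and wild-type medians fall with length and rise with GC content, and knock-out medians move less with length and slightly the other way with GC.

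With each library's trend on length and GC content taken out, an analysis added after this was seen, 94 genes were called higher and 117 lower, and 178 of them were among the 312. The AP-1 list kept 6 calls and a median of 1.23, TGF-beta signalling 3 calls and -0.21, the CD8, NK and gamma-delta markers 3 calls and -1.10, the Th17 list 2 calls and 1.26. The synthetases kept 3 of 7 calls, those of Gars, Mars and Sars. Ribosomal proteins kept 1 of 8 (median 0.12), and Rps6 was then at a log2 fold change of 0.15 (adjusted p = 0.288). Ago2 and Tnrc6b were no longer called (adjusted p = 0.18 and 0.111).

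The knock-in response resembled that of the other genotypes in direction. Of the 312 genes, 305 had the same sign in wild-type cells and 125 of these were called there too. In knock-out cells 286 had the same sign and 38 were called. Across all 14703 genes 66.3% and 57.7% had the same sign. The median log2 fold change of the higher genes was 0.56 in knock-in, 0.47 in wild-type and 0.30 in knock-out cells, and of the lower genes -0.34, -0.20 and -0.15. These genes were chosen for their change in knock-in cells, so a smaller value elsewhere is built into the choice. Wild-type cells had 331 calls (2.25%), 180 higher (1.22%) and 151 lower (1.03%). Knock-out cells had 70 (0.476%), 38 higher (0.258%) and 32 lower (0.218%).

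**Figure D5:**
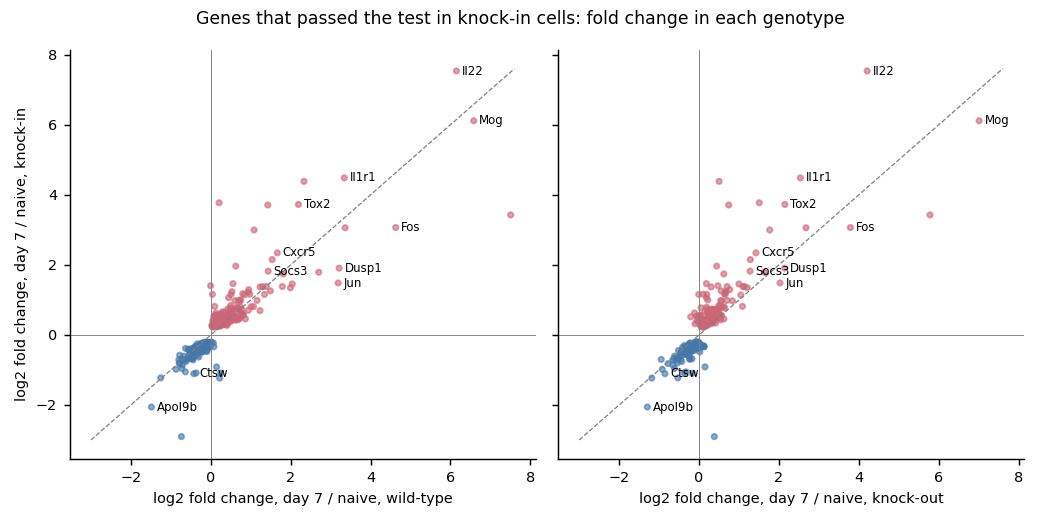
Log2 fold change, day 7 over naive, of the 312 genes called in knock-in cells (vertical axis) against wild-type (left) and knock-out cells (right); red genes are higher and blue lower in knock-in cells, and the dashed line marks equal change. Of these genes 305 have the same sign in wild-type and 286 in knock-out cells, and Fos, Jun and Dusp1 lie to the right of the line in both panels.

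Whether the response itself differed between genotypes was tested directly. No gene passed for knock-in minus wild-type (0%) or knock-in minus knock-out (0%) in edgeR, where 519 and 1041 genes had an unadjusted p under 0.05. DESeq2 called 1 and 2, and limma voom 0 and 0. Jun, Dusp1 and Junb had lower estimates in knock-in than in wild-type cells without passing: the log2 fold change of Jun was 1.48 against 3.19, with a difference of -1.71 (SE 0.46, adjusted p = 0.999), and that of Dusp1 1.91 against 3.21. Jun was at 106 ± 38.0 CPM in knock-in and 27.9 ± 11.9 CPM in wild-type naive cells (SD, n = 4 each). At day 7 it was at 296 ± 73.4 CPM (n = 4) and 259 ± 73.0 CPM (n = 5). Dusp1 was at 15.1 ± 5.05 and 6.20 ± 1.53 CPM in naive cells and at 56.3 ± 10.7 and 58.6 ± 13.5 CPM at day 7. Junb was among the 4 genes with the smallest p, at 1.34 against 1.99 (difference -0.65, SE 0.15, adjusted p = 0.676). The others were Btg1 (difference -0.41), Zkscan8 (0.65) and Chordc1 (-0.64), with adjusted p of 0.616, 0.472 and 0.472. Against knock-out cells the smallest p were those of Cc2d1b (difference 0.51, adjusted p = 0.349), Ccdc117 (-0.83, 0.349), Pdlim4 (0.85, 0.411) and Ei24 (0.72, 0.411). Ei24, a gene induced by p53, was the one among them that was called in knock-in cells, where it rose 1.43-fold (adjusted p = 0.0178).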

How the data were processed

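Gene counts were deposited by the authors as 1 table of 46078 mouse genes by 25 libraries, whole numbers with no normalization. The submitters' processing notes name the build mm10 and DESeq2, and the aligner, the counter and its strand setting are not given in the sources used here. Gene symbols were matched for 45229 genes from GENCODE M21.

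All 25 libraries were fitted together in 6 groups with edgeR 4.0.16 in R 4.3.3 (TMM scaling, filterByExpr with a minimum count of 10 and a minimum total of 15, robust quasi-likelihood F test, two-sided, Benjamini-Hochberg adjusted over 14703 genes, called under 0.05), since a shared fit steadies the estimate of the spread. CPM were computed from the deposited counts with TMM-scaled library sizes, and standard errors from the F statistic. A gene is called higher or lower only where it passed. Libraries of 1 group differed by 5.50 to 38.3 times the counting noise (chi-square per degree of freedom), so none was treated as a second sequencing of another. Separate preparations of 1 mouse or pool may also exceed counting noise, so this does not show that libraries are separate mice.

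Genes named are Mir150 and Myb, the higher and the lower called genes of largest change (at most 12 each) among those of at least 5 CPM in the higher group whose libraries did not overlap (predicted genes, pseudogenes and receptor segments left out), the 4 called genes of each list with the smallest p, or its 2 most abundant where none was called, and the 4 genes with the smallest p in each difference between genotypes. The other genes named were chosen after their values were seen. The comparison and the gene lists were chosen with earlier results of these data known, and 5 further lists, the promoters, the motifs and the correction for length and GC content were added after the values were seen. That correction took out each library's smooth trend on both, for the 14627 genes with a known transcript. Promoter windows were taken from RefSeq (GRCm38.p6). Other analyses used DESeq2 1.42.0, limma 3.58.1, other scalings and filters, fewer groups, library number and leaving out each library. The steps were tested on simulated data. With 4 libraries in each group, an exact permutation test cannot give a p under 0.02857. Some genes are not reported here.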

Additional observations from a re-analysis of the deposited data

Results flagged for a closer look

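In 286 sets of 4 libraries the highest or lowest library was compared with the spread of the rest, and chance marks about 1 set in 20. At day 7 library 3 stood above the others for Fos (109 CPM, next 49.1) and mt-Cytb (1590 CPM, next 1270), and below them for the summed CD8, NK and gamma-delta markers (60.1 CPM, next 64.3). Day 7 library 2 was lowest for Hspa5 (173 CPM, next 220), Sgk1 (37.3 CPM, next 41.1) and Il2ra (68.1 CPM, next 86.6), and highest for Stat6 (197 CPM, next 157) and Mog (2.93 CPM, next 0.605). Day 7 library 1 was highest for Cebpb (8.27 CPM, next 5.72), and day 7 library 4 for Igkc (198 CPM, next 12.9).

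Among naive libraries, library 1 was lowest for Il4ra (263 CPM, next 313) and Sars (88.9 CPM, next 96.8) and highest for Pik3cg (76.4 CPM, next 69.1). Library 2 was lowest for Ei24 (15.3 CPM, next 19.6) and highest for Aldh18a1 (49.0 CPM, next 41.1), Hist2h4 (15.3 CPM, next 12.1), Mog (0.0799 CPM, a single count) and the ribosomal RNA share (24.2%, next 23.0%). Library 3 was highest for Itga4 (495 CPM, next 435) and lowest for the summed B cell and plasma cell markers (166 CPM, next 220).

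Cc2d1b moved in opposite directions in 2 genotypes, by 0.228 on the log2 scale in knock-in and by -0.281 in knock-out cells. The difference did not pass edgeR's test (adjusted p = 0.349).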

How the results depend on the processing

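The count of 312 genes was 499 with DESeq2, 711 with limma voom and quality weights, 890 with no filter on low counts and 498 with only the groups compared. Leaving out 1 library gave 124 to 369. It was within 1.5 times that count, and at most 328, with RLE scaling, the stricter filter, library number as a term or as sets of consecutive numbers, the removal of ribosomal RNA, mitochondrial and haemoglobin genes, and the correction for length and GC content. The differences between genotypes, with 0 calls, gave 1 (wild-type) and 2 (knock-out) calls with DESeq2 and 109 and 241 with no filter. The causes were not tested.

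Of 97 named genes that were called, none changed direction under these alternatives. The calls lost numbered 0 with DESeq2, voom and the stricter filter, 1 with RLE scaling, 2 with library number as a term, 3 without ribosomal RNA, mitochondrial and haemoglobin genes, 5 with no filter, 11 with sets of consecutive library numbers (Cxcr5, Jun and Bcl3 among them), 16 with only the groups compared, 26 with the length and GC correction, and 13 to 40 without 1 library, most without naive library 1 or day 7 library 1.

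A change of sign occurred in genes that were not called, in log2 fold change. With voom Mir150 was at -0.041, Itgam at -0.021 and Alas2 at -0.26, and with sets of consecutive library numbers Alas2 was at -0.038. With the length and GC correction Mir150 was at -0.50, Ikzf2 at 0.078, Tcf3 at -0.038, Pkm at -0.071, H2-K1 at -0.035, Cd4 at -0.0094, Ighm at -0.0080 and Cst3 at -0.0056. Stat6 was at 0.0058 with the stricter filter and at 0.0030 without ribosomal RNA, mitochondrial and haemoglobin genes. Leaving out 1 library gave -0.30 to 0.36 for Mir150, -0.11 to 0.0092 for Il18r1, -0.10 to 0.026 for Stat6, -0.15 to 0.060 for Ikzf2, -0.021 to 0.14 for Pkm, -0.036 to 0.10 for mt-Cytb, -0.0065 to 0.11 for Ighm, -0.15 to 0.34 for Itgam, -0.012 to 0.31 for Itga2b and -0.69 to 0.57 for Alas2.

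No paired analysis was possible because the labels give no replicate numbers shared between groups and do not say that neighbouring library numbers share a day or litter. Sets of 4 consecutive library numbers, used as a block all the same, gave 254 calls, 243 of them among the 312. The shallowest naive library limits what can be seen in genes of a few CPM.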
